A study of Mus musculus with 8 samples.

Results

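The CXC chemokines and the IL-17 axis comprised 10 genes, chosen by name, of the 54715 annotated genes listed for mouse colon. They were the neutrophil chemoattractants Cxcl1, Cxcl2, Cxcl3 and Cxcl5, the cytokines Il17a, Il17f, Il23a and Tnf, the receptor subunit Il17ra and the granulocyte growth factor Csf3. RNA sequencing was done on 8 libraries, 1 per group, made from the colon of wild-type or DCIR-/- mice of the BALB/cA strain. DCIR is an inhibitory C-type lectin receptor of myeloid cells, encoded by Clec4a2. In each genotype the groups were untreated colon at steady state, colon on day 12 after induction with DSS (dextran sulfate sodium, an agent that damages the epithelium), and non-polyp colon and polyps on day 112 after azoxymethane, a carcinogen, and DSS (AOM-DSS). Age, the exons removed in the knockout, whether a library came from 1 animal or a pool, and whether non-polyp and polyp libraries shared animals were not given in the sources used here. GEO's design text speaks of 5 samples, whereas 8 are listed.

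IL-23, made by myeloid cells, sustains the lymphocytes that make IL-17A and IL-17F. These cytokines bind a receptor that contains IL-17RA on epithelial and stromal cells, often acting together with TNF through NF-kB and through factors that stabilise mRNA. Among the genes so induced are CXC chemokines, which attract neutrophils through CXCR2, and Csf3, which encodes G-CSF and drives the making of neutrophils. In the colon the same axis is known both for barrier defence and for inflammation that accompanies tumours.

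Cxcl5, Cxcl3, Cxcl1 and Cxcl2 lie in that order on the plus strand of chromosome 5, within 146579 bases that hold 11 annotated genes. Their GRCm38 positions are 90759360 to 90761624 for Cxcl5 (ENSMUSG00000029371), 90786103 to 90789600 for Cxcl3 (ENSMUSG00000029379), 90891241 to 90893115 for Cxcl1 (ENSMUSG00000029380) and 90903871 to 90905938 for Cxcl2 (ENSMUSG00000058427). RefSeq promoters (GRCm38.p6) were matched for 6 of the 10 genes, and 3 of them belong to this cluster. The 120 bases before the RefSeq start of each are shown because these chemokines had high levels in the same 3 libraries. Capitals mark the stretch GGGAATTTCC, part of the 11-base run GGGAATTTCCC that they share. The windows are chr5:90891125-90891244, chr5:90903779-90903898 and chr5:90785981-90786100, all plus strand.
Cxcl1: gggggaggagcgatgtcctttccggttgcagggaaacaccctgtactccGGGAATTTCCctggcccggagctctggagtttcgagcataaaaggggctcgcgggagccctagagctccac
Cxcl2: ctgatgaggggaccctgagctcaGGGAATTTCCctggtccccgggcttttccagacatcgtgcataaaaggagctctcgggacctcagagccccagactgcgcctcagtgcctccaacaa
Cxcl3: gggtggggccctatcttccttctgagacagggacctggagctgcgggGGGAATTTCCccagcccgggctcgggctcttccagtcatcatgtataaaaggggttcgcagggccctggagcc

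The marked stretch lay 71 to 62 bases before the start in Cxcl1, 97 to 88 in Cxcl2 and 73 to 64 in Cxcl3. Motifs were searched on both strands of the whole 300-base RefSeq promoter windows, which begin further upstream than the 120 bases shown and run past the start. Of all 32851 such windows, 29, or 0.0883%, held GGGAATTTCC. Because the stretch was picked from these 3 promoters, its presence in them was fixed in advance. The share therefore does not measure how unexpected it is there. The stretch is a form of the NF-kB consensus, which was found in 1480 windows, or 4.51%, and which overlapped it on both strands in these 3 genes. The letters TATAAA were found in 4473 windows, or 13.6%, and were present in Cxcl3, Il17a, Il17f and Tnf but not in the windows of Cxcl1 and Cxcl2. Neither GGGAATTTCC nor the NF-kB consensus was found in the Tnf, Il17a and Il17f windows. A match of letters describes the sequence and was not tested as a binding site.

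Levels are given as TPM, which is scaled for transcript length, so they can be compared between genes. By definition, the TPM of every gene in a library is the same multiple of its FPKM, a second length-scaled unit, and this ratio was 1.84 to 2.22. Annotated rows that left it by more than 0.1% numbered 35 of 202686 over all genes, and 23 of the 80 values of the 10 genes were among them. The 23 stood in Cxcl1, Cxcl2, Cxcl3, Cxcl5, Il17a, Il17f and Tnf, whereas Il17ra, Il23a and Csf3 kept the ratio in every library. By library they were 7 in wild-type non-polyp, 5 in knockout non-polyp, 5 in wild-type polyp, 3 in knockout polyp and 3 in wild-type DSS, with 0 in the other libraries.

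In 16 of these 23 values, the deposited annotated TPM equalled that of the locus assembled at the same place in the other genotype's library of that stage. The other 7, in Cxcl2, Il17a, Il17f and Tnf of wild-type libraries, kept the ratio within 0.01% once whole numbers were taken off both FPKM and TPM. Each departing value was replaced by the assembled locus of its own library where there was one, which gave 19 replacements. The remaining 4 values were left missing, so 76 were used. Across annotated genes and assembled loci of the same span, between 69.8% and 71.5% of pairs agreed within 1% in a library.

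**Figure D1:**
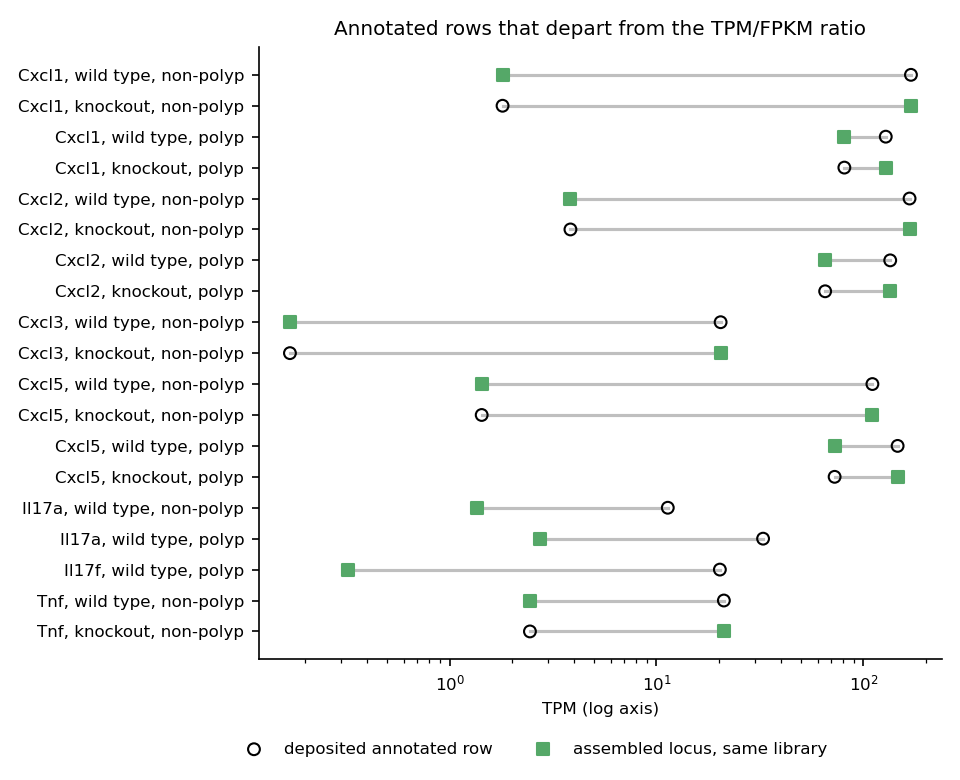
TPM on a log axis of the 19 departing annotated rows that had an assembled locus in the same library. Open circles are the deposited annotated rows and green squares the assembled loci; for Cxcl1, Cxcl2, Cxcl3, Cxcl5 and Tnf the circle of one genotype stands where the square of the other genotype stands.

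Clec4a2 was listed at 0.659 TPM in the steady-state knockout and at 0 in the 3 other knockout libraries, against 2.74 to 4.33 TPM in wild type. Aligned bases were 2.7 to 3.35 gigabases per library, and 15958 to 16966 genes reached 1 TPM. The knockout non-polyp library stood with the polyps and apart from its label in several marker lists. The summed TPM of 8 smooth muscle markers was 747 there and 756 and 469 in the polyps, against 5822 to 10510 in the other libraries. The sum of 8 WNT target genes was 1772 there and 1574 and 1462 in the polyps, against 44.8 to 80.5 elsewhere, and that of 9 colonocyte markers was 1070, against 6926 in wild-type non-polyp. Markers of male accessory glands summed to 3553 to 5752 TPM in the steady-state and DSS libraries and to 1.36 to 14.4 at day 112. Single markers differed widely between the DSS libraries, with Svs4 at 1.08 and 541 TPM and Svs5 at 0.54 and 662 in wild type and knockout, and Msmb at 327 and 0.17. The 6 adipocyte markers summed to 65.4 TPM in wild type and 946 in knockout at steady state, and to 218 and 242 with DSS. At day 112 their sums in wild type and knockout were 602 and 38.9 in non-polyp colon and 74.45 and 31.4 in polyps. The part of these differences in the results that follow was not tested. The fits that use the non-polyp libraries are also given with each of them left out. Because bulk tissue was sequenced, fewer cells of a type and less RNA per cell cannot be told apart.

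The 4 chemokines were low at steady state and highest in the polyps and the knockout non-polyp library. Giving wild type first in each pair, as in all pairs of values that follow, Cxcl1 had 1.03 and 0.882 TPM at steady state, 3.03 and 2.02 with DSS, 1.80 and 170 in non-polyp colon, and 80.9 and 128 in polyps. The highest value of the other 5 libraries was 3.03. The split into 3 and 5 was read from these values, and the share of all genes that have it was not counted. The deposited annotated rows would give the opposite order of the genotypes at day 112, since they hold 170 in wild-type and 1.80 in knockout non-polyp.

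Cxcl2, like Cxcl1 an early product of activated macrophages and epithelium, was at 0 and 0.0534 TPM at steady state. It stood at 0.326 in knockout DSS, 3.84 and 167 in wild-type and knockout non-polyp, and 65.3 and 135 in polyps. Its wild-type DSS row, deposited as 36.7, had no usable value. Wild-type non-polyp, at 3.84, was the only library between the low and the high ones.

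Cxcl5, made largely by epithelial and stromal cells, and Cxcl3, a close relative of Cxcl2, both stood above steady state in wild-type DSS. Cxcl5 had the larger value. Its steady-state levels were 0.523 and 0.345 TPM, its DSS levels 18.8 and 0.782, and at day 112 it had 1.43 and 110 in non-polyp colon, and 72.6 and 146 in polyps. Both DSS rows kept the ratio, and wild-type DSS stood between the low and the high libraries. Cxcl3 was the lowest of the 4 at day 112. Its levels were 0.0310 and 0 TPM at steady state, 1.84 and 0 with DSS, 0.169 and 20.4 in non-polyp colon and 14.9 and 24.1 in polyps.

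The summed level of the 4 chemokines was 1.58 and 1.28 TPM at steady state and 3.13 in knockout DSS. At day 112 it was 7.24 and 468 in non-polyp colon and 234 and 433 in polyps. Their make-up differed too, as Cxcl1 was 64.6% to 68.9% of the sum in the steady-state and knockout DSS libraries and 24.9% to 36.3% at day 112. Cxcl2 was the largest share in wild-type non-polyp, at 53%, Cxcl1 in knockout non-polyp and wild-type polyp, and Cxcl5 in knockout polyp, at 33.8%. With 1 library per group no spread is known, so neighbours in these orders cannot be separated.

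**Figure D2:**
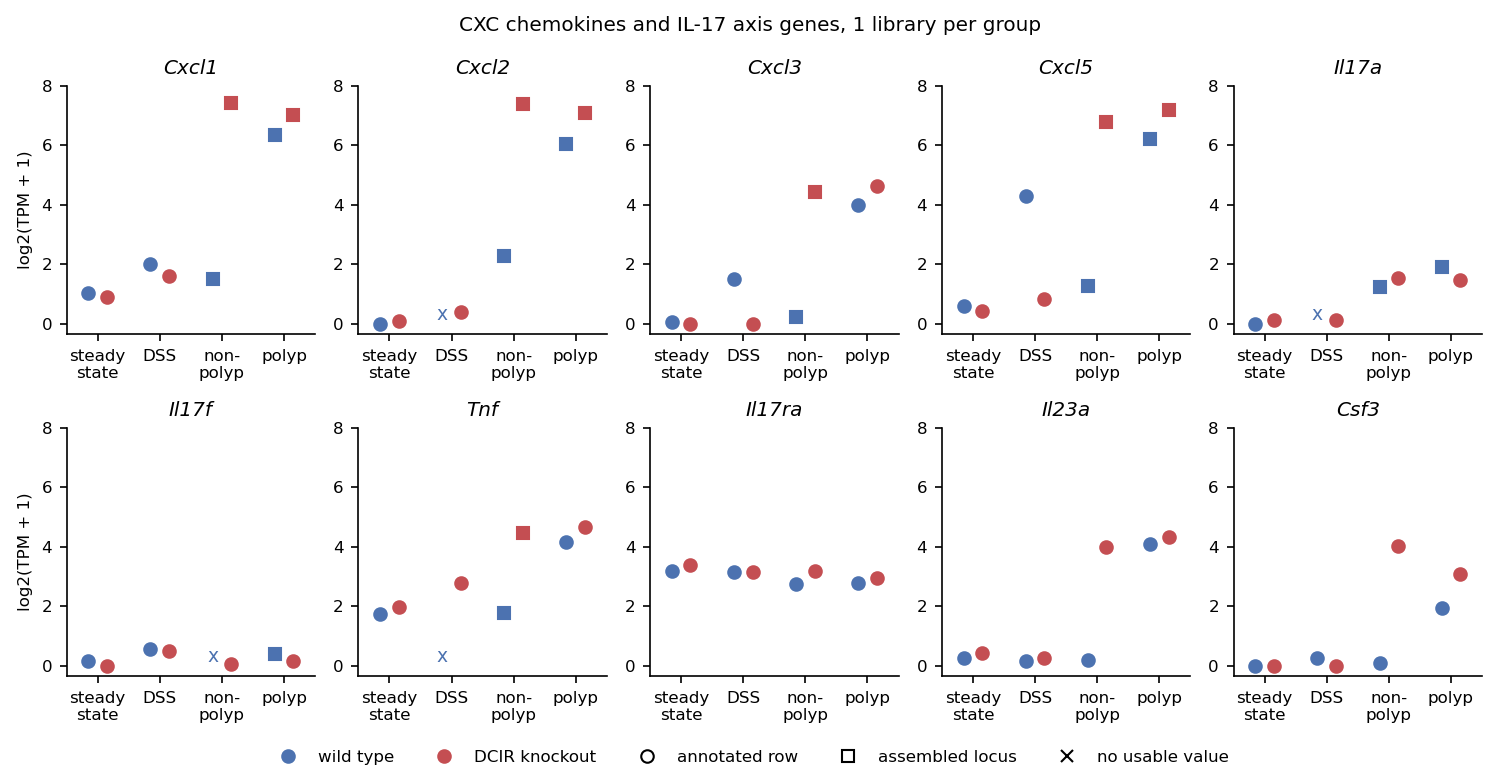
log2(TPM + 1) of each gene in the 8 libraries, by stage, with wild type in blue and knockout in red. Circles are annotated rows, squares the assembled loci that replaced departing rows, and x marks the 4 values with no usable level; Cxcl1, Cxcl2, Cxcl3, Cxcl5, Il23a and Csf3 are high in both polyps and in knockout non-polyp.

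The IL-17 cytokines themselves stayed low. Il17a (ENSMUSG00000025929, chromosome 1, 20730905 to 20734496), the main IL-17 receptor ligand, had steady-state levels of 0 and 0.0936 TPM and was at 0.0955 in knockout DSS. At day 112 it stood at 1.36 and 1.91 in wild-type and knockout non-polyp and at 2.74 and 1.79 in polyps. The 4 day 112 values lay above the usable earlier ones, which in the knockout rest on about 149 aligned bases each, less than the length of 1 transcript of the gene. Wild-type Il17a was deposited as 10.4 TPM after DSS, 11.3 in non-polyp and 32.7 in polyp, and those rows departed from the ratio. The wild-type non-polyp locus shares only 44.8% of the gene's span, and the remainder of its deposited row after whole numbers were taken off was 0.341 TPM, against 1.36 at the locus.

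Il17f (ENSMUSG00000041872, chromosome 1, 20777146 to 20790617), the closest relative of Il17a, was under 1 TPM in every library with a usable value. These were 0.118 and 0 at steady state, 0.480 and 0.394 after DSS, 0.0450 in knockout non-polyp, and 0.324 and 0.123 in polyps. The deposited 4.02 and 20.2 TPM of wild-type non-polyp and polyp departed, and the wild-type polyp locus covers 13.9% of the span. With a mean of 0.212 TPM, Il17f was below the limit of 1 for testing.

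Il23a (ENSMUSG00000025383, chromosome 10, 128296139 to 128298752), the p19 subunit of IL-23, kept the ratio in all 8 libraries. Levels were 0.191 and 0.344 TPM at steady state, 0.116 and 0.196 with DSS, 0.134 and 15.1 in non-polyp colon, and 16.1 and 19.2 in polyps. The same 3 libraries were high as for the chemokines, here from annotated rows that needed no replacement. Il12b, which encodes the other IL-23 subunit, did not reach 1 TPM in any library, and its highest level was 0.983 in steady-state knockout.

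Tnf (ENSMUSG00000024401, chromosome 17, 35199381 to 35202007), which acts with IL-17 on the same target genes, stood at 2.36 and 2.96 TPM at steady state and 5.85 in knockout DSS. At day 112 its levels were 2.45 and 21.2 in non-polyp colon and 16.7 and 24.4 in polyps. Wild-type DSS, deposited as 65.5, had no usable value. Knockout DSS was the highest of the usable libraries outside the polyps and knockout non-polyp.

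Csf3 (ENSMUSG00000038067, chromosome 11, 98701263 to 98703629) was at 0 at steady state in either genotype and in knockout DSS. Elsewhere it stood at 0.185 TPM in wild-type DSS, 0.0751 and 15.2 in wild-type and knockout non-polyp, and 2.87 and 7.54 in polyps. Knockout non-polyp was its highest library, and wild-type polyp lay below knockout polyp. An assembled locus on the opposite strand overlaps Csf3 in wild-type non-polyp and polyp, and the use of strand in counting was not given in the sources used here.

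Il17ra (ENSMUSG00000002897, chromosome 6, 120463247 to 120487559), the shared receptor subunit, was detected in every library and was the highest of the 10 at steady state. It had 8.05 and 9.55 TPM at steady state, 7.87 and 7.88 with DSS, 5.69 and 8.20 in non-polyp colon and 5.95 and 6.78 in polyps. Both polyps and wild-type non-polyp were the 3 lowest libraries, and knockout non-polyp lay with the earlier ones.

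The first comparison asked how the genotypes differed within a stage. With 1 library each, differences are given on the log2(TPM + 1) scale with no test, and those of at least 1 are counted as 2-fold. The added 1 TPM shrinks differences between low values. A gene not counted can therefore differ by more than 2-fold in plain TPM. At steady state 0 of the 10 genes reached it, against a background of 3.59% of genes higher and 1.18% lower in knockout. After DSS, 0 of 7 genes with both values were higher and 2 were lower in knockout, against 1.86% and 2.81%. These were Cxcl5, at -3.47, and Cxcl3, at -1.51, while Cxcl1 stood at -0.42. Had the departing wild-type rows taken their remainder after whole numbers were taken off, Cxcl2 would be lower too, at -1.84, which makes 3 of 10 genes.

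In the same DSS pair, 7 of 11 neutrophil markers tested were at least 2-fold lower in knockout and 0 higher. Of the 21 IL-17 and TNF target genes 8 were lower and 1 higher, against 2.81% and 1.86% of all genes. The lists overlap, and S100a8 and S100a9 are counted as lower in both. S100a9, a subunit of the neutrophil protein calprotectin, was at 136 and 2.10 TPM, Saa3, an acute-phase protein, at 118 and 4.14, and Cxcr2, the receptor of these chemokines, at 2.46 and 0.0734. Reg3b, an antimicrobial lectin, went the other way, at 0.98 and 4.08. All 15 neutrophil markers summed to 812 and 589 TPM, of which Ly6g made up 369 and 378 and Cd177 203 and 204. Without these, which were also high at steady state, the other 13 summed to 239.6 and 6.46 TPM. Mpo and Elane were at 0 in wild type, and Elane, Ngp and Mmp8 in knockout. The part of these markers, and of the accessory gland markers that differ within the same pair, in the Cxcl5 and Cxcl3 differences was not tested.

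In non-polyp colon, 7 of 9 genes were at least 2-fold higher in knockout and 0 lower, against 14.7% and 9.93% of all genes. The differences were 5.93 for Cxcl1, 5.12 for Cxcl2, 4.20 for Cxcl3, 5.52 for Cxcl5, 2.69 for Tnf, 3.83 for Il23a and 3.92 for Csf3, with 0.30 for Il17a and 0.46 for Il17ra. With the remainder of its wild-type row, Il17a would stand at 1.12, past the 2-fold mark. Of the 4 genotype pairs this is also the one whose smooth muscle, colonocyte and WNT target sums differed most. Between polyps, 3 of 10 genes were at least 2-fold higher in knockout and 0 lower, against 3.68% and 2.24%. They were Cxcl2 at 1.03, Cxcl5 at 1.00, on the threshold, and Csf3 at 1.14, while Cxcl1 stood at 0.66, Cxcl3 at 0.66, Tnf at 0.52 and Il17a at -0.42.

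**Figure D3:**
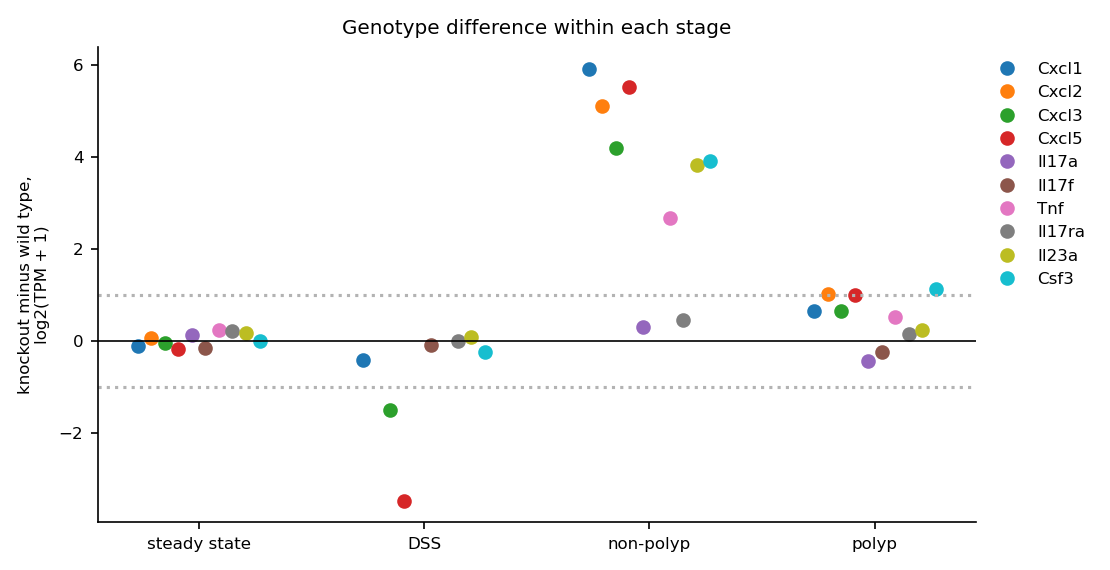
Knockout minus wild type on the log2(TPM + 1) scale for each gene with both values, by stage, 1 library per group. Dotted lines mark a 2-fold difference; non-polyp colon holds 7 genes above the line, and DSS holds Cxcl3 and Cxcl5 below it.

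A linear model with genotype and stage was fitted to all 8 libraries with limma, for 16863 genes with a mean of at least 1 TPM. For genotype, 0 genes passed an adjusted p of 0.05, and 737, or 4.37%, had an unadjusted p under 0.05. Of the 9 genes tested, Tnf ranked first, with a difference of 1.15 ± 0.54 (SE) and a limma adjusted p = 0.705. Cxcl2 stood at 2.08 ± 1.01, Cxcl1 at 1.52 ± 1.07, Csf3 at 1.20 ± 0.71, Il23a at 1.09 ± 0.68 and Il17a at 0.00 ± 0.29, all in log2 units. Cxcl2, Tnf and Il17a were fitted on 7 libraries. Adjusted p in this limma test ran from 0.705 to 0.998 over the 9 genes. When either non-polyp library was left out, the estimates fell to 0.045 for Cxcl1, 0.55 for Cxcl2, 0.38 for Tnf, 0.17 for Il23a and 0.30 for Csf3, and turned to -0.30 for Cxcl3, -0.88 for Cxcl5 and -0.15 for Il17a, with no call in either case.

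The second comparison asked what DSS did on day 12. In wild type, 2 of 7 genes were at least 2-fold higher than at steady state, Cxcl5 by 3.70 and Cxcl3 by 1.46 log2 units, and 0 were lower, against 2.74% and 3.73% of genes. Cxcl2 would add to these at 2.24 with the remainder of its wild-type row. Wild-type Cxcl1 stood just under the mark, at 0.99, or 2.95 times its steady-state level in plain TPM. In knockout, 0 of 10 reached 2-fold on this scale in either direction, against 1.76% and 7.41%, and Tnf was nearest at 0.79. In plain TPM, knockout Cxcl1, Cxcl2 and Cxcl5 stood at 2.29, 6.11 and 2.26 times their steady-state levels, all from low values. Il23a and Il17ra stood at 0.57 and 0.825 times theirs. In limma 0 of 16863 genes passed, with 902, or 5.35%, at an unadjusted p under 0.05, and the adjusted p of the 9 genes ran from 0.91 to 0.994.

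The third comparison set non-polyp colon at day 112 against steady state. In wild type 2 of 9 genes were at least 2-fold higher, Cxcl2 by 2.28 and Il17a by 1.24 log2 units, against 3.93% of genes, and 0 were lower, against 8.47%. The Il17a value rests on a locus that shares 44.8% of the gene's span, and with the remainder of its row the difference is 0.42 and no longer 2-fold. In knockout 8 of 10 were at least 2-fold higher, all but Il17f and Il17ra, against 9.57%, and 0 were lower, against 15.6%. With both genotypes, limma called 12 genes higher (0.0712%) and 43 lower (0.255%), none of them among the 10. The nearest were Cxcl2 at 4.80 ± 1.23, with a limma adjusted p = 0.19, and Il17a at 1.33 ± 0.36, with a limma adjusted p = 0.203.

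Without the wild-type non-polyp library, 7 of the 9 tested genes passed as higher, against 5.35% of genes higher and 7.91% lower. They were Cxcl1, Cxcl2, Cxcl3, Cxcl5, Tnf, Il23a and Csf3, with limma adjusted p between 0.00435 for Cxcl1 and 0.0299 for Cxcl5. That estimate rests on the knockout non-polyp library alone, which is assumed to vary like the others. Without the knockout non-polyp library, 0 of the 9 passed, against 0.119% higher and 0.297% lower.

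The fourth comparison set polyps against non-polyp colon. In wild type 7 of 9 genes were at least 2-fold higher in the polyp, against 9.17% of genes, and 0 were lower, against 9.79%. The differences were 4.87 for Cxcl1, 3.78 for Cxcl2, 3.76 for Cxcl3, 4.92 for Cxcl5, 2.36 for Tnf, 3.91 for Il23a and 1.85 for Csf3. Il17a stood at 0.66, or at 1.48 with the remainder of its non-polyp row. In knockout 0 of 10 differed 2-fold on this scale, against 1.31% and 1.56%, and the values ran from -0.93 for Csf3 to 0.40 for Cxcl5. In plain TPM, Csf3 was 2.02-fold lower in the knockout polyp. Il17f, under 1 TPM in both libraries, was 2.72-fold higher.

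Over both genotypes, limma called 0 genes between polyp and non-polyp, with 496, or 2.94%, at an unadjusted p under 0.05. Il23a had a difference of 2.12 ± 0.96 and Cxcl1 of 2.23 ± 1.51, and the limma adjusted p of the 9 genes ran from 0.858 to 0.944. Without the knockout non-polyp library, limma called 736 genes higher (4.36%) and 796 lower (4.72%), and 5 of the 9 genes rose. Cxcl1 rose by 5.17 ± 0.43 (limma adjusted p = 0.00681) and Il23a by 3.95 ± 0.33 (limma adjusted p = 0.007). Cxcl2 rose by 4.02 ± 0.46, Cxcl3 by 4.24 ± 0.69 and Tnf by 2.43 ± 0.35, with limma adjusted p of 0.0175, 0.0256 and 0.0279. Cxcl5, at 5.86, and Csf3, at 2.27, had limma adjusted p of 0.0508 and 0.0542. Non-polyp colon is then wild type alone, so this test takes the polyp difference to be equal in both genotypes. Without the wild-type non-polyp library, 0 of the 9 genes passed, as did 0 of all genes, and Cxcl1 stood at -0.71, Cxcl2 at -0.55, Cxcl3 at -0.25, Cxcl5 at -0.54, Csf3 at -1.35, Tnf at 0.13 and Il23a at 0.29. In the fit without knockout non-polyp, all 8 smooth muscle markers were lower and all 8 WNT targets higher in polyps, and their part in the result was not tested.

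**Figure D4:**
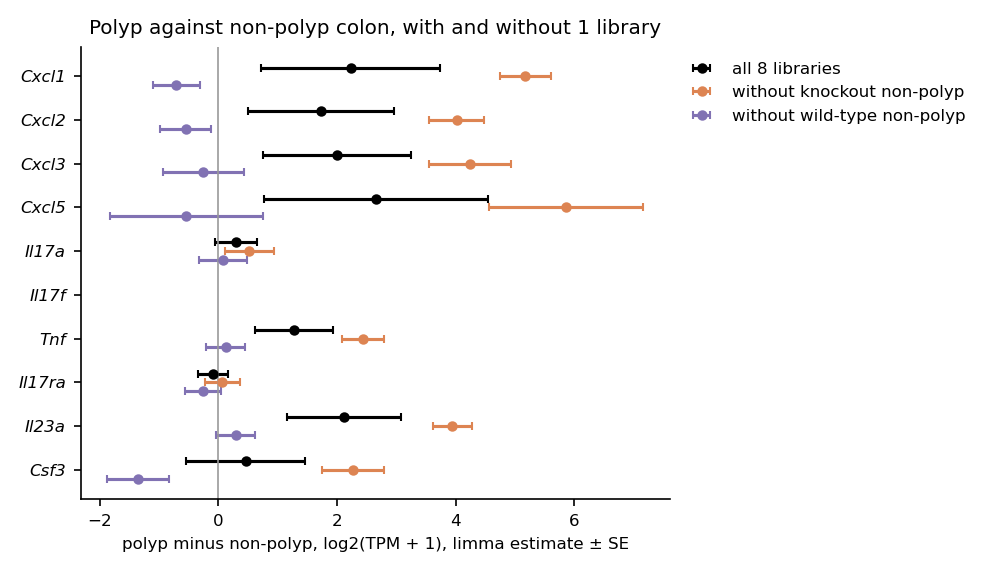
Polyp minus non-polyp estimate from limma on the log2(TPM + 1) scale, with its SE, for the 9 tested genes. Black uses all 8 libraries, orange leaves out knockout non-polyp and purple leaves out wild-type non-polyp; the Cxcl1 estimate is 2.23 with all libraries, 5.17 in orange and -0.71 in purple.

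Other genes of the pathway were described in the same fits. For polyp against non-polyp, the calls that follow come only without knockout non-polyp, where 4.36% of all genes were higher and 4.72% lower. In the same comparison without wild-type non-polyp, none of those calls held. Among receptors, Cxcr2 had 0.0710 and 0 TPM at steady state, 2.46 and 0.0734 with DSS, 0.164 and 7.63 in non-polyp colon and 3.45 and 5.38 in polyps. Csf3r, the G-CSF receptor of neutrophils, was 1.52 and 15.1 in non-polyp colon and 6.51 and 11.6 in polyps. Il17rc, which pairs with IL-17RA, went the other way, at 95.0 to 150 TPM in the earlier and wild-type non-polyp libraries and 36.6 to 43.4 in the other 3. Of 9 receptors tested, 0 passed in any of the 4 limma comparisons with all libraries. Without knockout non-polyp 1 of 9 did, as Il17rc fell in polyps by 1.13 ± 0.21 log2 units (limma adjusted p = 0.034). Il23r did not reach 1 TPM in any library.

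Among partner cytokines, Il1b, a myeloid product that supports IL-17 making cells, was 9.29 and 170 TPM in non-polyp colon and 82.9 and 133 in polyps. Il6, with a like role, was 0.124 and 22.2, and 4.54 and 12.7. Il22, another product of type 17 cells, was below 1 TPM throughout. Of 7 partner cytokines tested, 0 passed with all libraries, and without knockout non-polyp Il6 rose in polyps by 2.75 ± 0.54 and Il17d fell by 1.51 ± 0.27 (limma adjusted p = 0.0376 and 0.0317). The 9 type 17 lymphocyte genes tested had a median polyp difference of 0.20 log2 units in wild type and -0.03 in knockout, beside 0.06 and 0.00 over all genes, and 0 passed with all libraries. T cell markers summed to 25.6 to 37.5 TPM at day 112 and 38.1 to 79.2 earlier.

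The 23 signalling genes, adaptors and NF-kB factors downstream of IL-17RA and TNF receptors, had a median knockout minus wild-type difference of 0.73 in non-polyp colon and of 0.09 at steady state, -0.05 after DSS and 0.21 in polyps, beside 0.21, 0.09, -0.05 and 0.13 over all genes. Nfkbiz, an NF-kB cofactor of IL-17 targets, was 24.0 and 62.5 TPM in non-polyp colon and 28.2 and 46.8 in polyps, and Zc3h12a, a feedback ribonuclease, 23.1 and 47.5, and 38.6 and 51.3. Between polyp and non-polyp the median was 0.45 in wild type and -0.03 in knockout, beside 0.06 and 0.00 over all genes, and 0 passed with all libraries. Without knockout non-polyp, 2 of 23 rose, Ikbkb and Cebpd, and 0 fell, and without wild-type non-polyp the fitted median was -0.10.

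The 21 target genes are known to respond to IL-17 or TNF in epithelium and stroma. Lcn2, an iron-binding antimicrobial protein, had 1.21 and 3.18 TPM at steady state, 14.7 and 2.17 with DSS, 13.0 and 224 in non-polyp colon and 236 and 267 in polyps. Median knockout minus wild-type differences of the list were 0.21 (steady state), -0.52 (DSS), 2.63 (non-polyp) and 0.14 (polyp), beside 0.09, -0.05, 0.21 and 0.13 over all genes. With all libraries limma called 1 of the 21, Reg3g, an antimicrobial lectin, which rose in non-polyp colon against steady state. Without knockout non-polyp, 7 of 21 rose in polyps (Lcn2, Ccl2, Ccl7, Mmp9, Mmp13, Duoxa2 and Steap4) and 1, Pigr, the epithelial transporter of IgA, fell, against 4.36% and 4.72% of all genes. In that polyp comparison without wild-type non-polyp, the fitted median of the 21 was 0.23 log2 units, beside -0.03 over all genes. Of 8 other CXC chemokines tested, 1, Cxcl14, rose without knockout non-polyp, by 2.46 ± 0.34 (limma adjusted p = 0.0174).

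**Figure D5:**
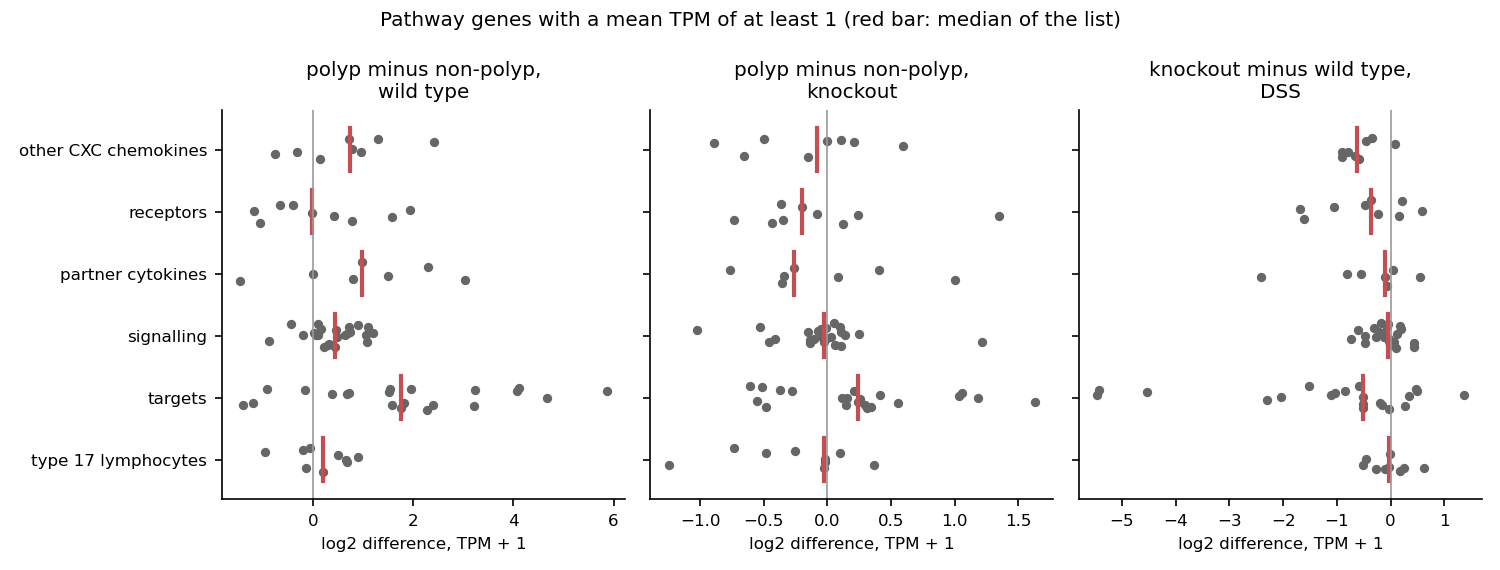
Log2 differences on the TPM + 1 scale for pathway genes with a mean of at least 1 TPM, 1 point per gene, for 3 pairs of libraries. The red bar is the list median; for targets it is 1.75 for polyp minus non-polyp in wild type, 0.24 in knockout, and -0.52 for knockout minus wild type after DSS.

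Summed markers of the cells concerned were set beside these levels. The 15 neutrophil markers summed to 361 TPM in wild-type non-polyp, and to 1128, 991 and 931 in knockout non-polyp, wild-type polyp and knockout polyp, with Elane at 0 in all 4. Without Ly6g and Cd177 the sums were 52.9, and 707, 528 and 512. The 10 macrophage and monocyte markers summed to 815 in wild-type non-polyp and 1331 to 1602 in the other 3, with none at 0. Their part in the chemokine levels was not tested.

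For the 6 genes with a usable value in every library, the 3 other genes closest in pattern were found. The measure was the Pearson correlation of log2(TPM + 1) over the 8 libraries. In this description the points share the split between the 3 high libraries and the rest, except for Il17ra. Cxcl1 was closest to Khdc1a, Il11 and Gata5 (r of 0.999, 0.996 and 0.996). Il11, a cytokine of the IL-6 family, had 0.872 and 78.0 TPM in non-polyp colon. Csf3 was closest to Il6, Yy2 and Fosl1 (0.998, 0.995 and 0.994), Cxcl3 to Gm12347, Cemip and Nebl (0.999, 0.996 and 0.996), and Il23a to Gm30262, Tex19.2 and Abcc2 (0.999, 0.999 and 0.999). Cxcl5 was closest to Trim15, Capns1 and Gm7332 (0.997, 0.992 and 0.991). Trim15 stood at 23.0 TPM in wild-type DSS and 4.60 to 7.09 in the other low libraries. Il17ra was closest to Stk38, Jak1 and Rab39b (0.996, 0.987 and 0.973).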

How the data were processed

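Libraries were prepared from total RNA of flash-frozen colon and polyps (NEBNext Ultra RNA kit), per the labels' protocols. The authors deposited per gene a coverage (mean signal per base), an FPKM and a TPM, per the file headers. StringTie and GRCm38 (mm10) are named in the submitters' processing notes. The version, aligner and annotation were not given in the sources used here. In the 6 files that also list assembled loci, the deposited TPM columns hold annotated genes and loci together, so each column was treated as a score. Where a locus replaced a departing row, fits and pairs of libraries compare a locus with annotated rows of other libraries. The DSS files list no such loci. Groups were read from the sample titles.

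The ratio of TPM to FPKM was checked for rows with an FPKM of at least 0.002. A departing row took the TPM of the assembled locus of its own library, or was left missing, in every gene. Genes with several rows, 13 in number, were left out. Tests ran on log2(TPM + 1) with limma 3.58.1 in R 4.3.3, with genotype and stage as terms, an intensity trend, 3 residual degrees of freedom and Benjamini-Hochberg adjustment over every gene whose mean TPM reached 1. Pairs of libraries got no test. P-values measure only the spread between these libraries, which holds any dependence of genotype on stage. On simulated data the fit recovered 0 of 200 changes of 1 log2 unit in each of the 4 comparisons. Of changes of 2 log2 units it recovered 62.5% to 87.5%, with 8 to 18 false calls. The changed genes were drawn at random from the tested genes with a value in every library, so these are not the rates of the 10 genes. A simulated genotype change was equal in every stage. With all libraries, Cxcl2 at 4.80 ± 1.23 and Cxcl5 at 3.52 ± 1.89 were not called for non-polyp against steady state. A lack of calls therefore does not exclude 2-fold differences, or larger ones in genes of such spread. The 10 genes, the lists and the tests were chosen with earlier results of these data known. Genes named from the lists are the up to 4 of highest mean TPM, 14 given by name, of which 1 is not reported here, and those called. Alternatives were a pseudocount of 0.1, no filter, median-of-ratios rescaling, deposited TPM in every row, genes with a departing row left out, assembled loci throughout, no trend, each library left out, and, added after the data were seen, whole numbers taken off departing rows and a neutrophil sum without Ly6g and Cd177. Read counts were not given, so depth is known only as aligned bases, and no counting interval was set.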

Additional observations from a re-analysis of the deposited data

Results flagged for a closer look

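The knockout minus wild-type difference was at least 2-fold in opposite directions in different stages for 2 of the chemokines. For Cxcl3 it was -1.51 log2 units after DSS and 4.20 in non-polyp colon. Cxcl5 stood at -3.47 after DSS, 5.52 in non-polyp colon and 1.00 in polyps. The difference between stages was not tested, since each group holds 1 library. The DSS values come from annotated rows that keep the ratio of TPM to FPKM. In non-polyp colon both genes, and in polyps Cxcl5, have levels from the assembled loci, and the deposited annotated rows there have the opposite sign. Cxcl1 changed sign too, from -0.42 after DSS, under 2-fold, to 5.93 in non-polyp colon. Cxcl2 had no usable wild-type value after DSS.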

How the results depend on the processing

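No paired analysis was possible because the labels carry no replicate numbers and each group holds 1 library. The 4 comparisons gave 36 results for the 9 genes. Of 264 values under other settings, 253 kept direction and call and 11 reversed. With deposited TPM in every row, the genotype difference turned to -1.78 for Cxcl1, -2.73 for Cxcl2, -1.27 for Cxcl3, -2.54 for Cxcl5, -2.23 for Il17a and -1.30 for Tnf, and Cxcl2 after DSS to 2.79. By construction, that setting uses the rows that depart from the ratio. In the fits, whole numbers were taken off only the 4 departing rows without a locus, and Il17a in wild-type non-polyp kept its locus. This gave -0.10 for Il17a by genotype and 1.29 for Cxcl2 after DSS. A pseudocount of 0.1 gave 0.61 for the latter, and rescaling by median of ratios gave -0.090 for the former. For these 4 reversed values the cause was not tested. Rescaling moved the median genotype difference of all genes from 0.10 to 0.00. With no filter, 13 genes were called between non-polyp colon and steady state, against 55.

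Leaving out 1 library at a time, calls ran from 0 to 1 for genotype, from 9 to 2236 for non-polyp against steady state and from 0 to 1532 for polyp against non-polyp. For non-polyp against steady state, 10 were called without wild-type steady state, 9 without knockout steady state, 36 and 35 without wild-type and knockout DSS, 15 without either polyp library and 2236 without wild-type non-polyp, and for polyp against non-polyp the 1532 came without knockout non-polyp. Of 276 such values of the 9 genes, 233 kept direction and call, 31 reversed, in 20 results, and 12 passed the threshold. Ranges that crossed 0 were, for genotype, -0.30 to 1.60 for Cxcl3, -0.88 to 2.11 for Cxcl5, -0.15 to 0.22 for Il17a. For DSS they were -0.45 to 2.12 for Cxcl1, -2.67 to 0.33 for Cxcl2, -0.82 to 2.29 for Cxcl3, -0.74 to 4.85 for Cxcl5, -0.041 to 0.19 for Il17a, -0.57 to 0.79 for Tnf, -0.28 to 3.8e-05 for Il17ra, -0.79 to 0.53 for Il23a, -0.84 to 1.09 for Csf3. For non-polyp against steady state the range was -0.072 to 3.58 for Il23a. For polyp against non-polyp they were -0.71 to 5.17 for Cxcl1, -0.55 to 4.02 for Cxcl2, -0.25 to 4.24 for Cxcl3, -0.54 to 5.86 for Cxcl5, -0.019 to 0.62 for Il17a, -0.26 to 0.071 for Il17ra, -1.35 to 2.27 for Csf3. Depth limits low values, since Il17a at 0.09 TPM and Cxcl3 at 0.0310 TPM each rest on about 149 aligned bases.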
